A study of Mus musculus with 2 samples.

Results

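Ribosomal protein genes encode the proteins that, with ribosomal RNA, build the cytoplasmic ribosome. They were taken here by symbol alone: protein-coding genes of the mouse mm10 annotation named Rpsa, or named Rpl, Rps or Rplp with a number, at most 1 letter and 1 further digit. The rule found 83 of 21938 protein-coding genes. Of these, 77 are core ribosomal protein genes, 31 for the small subunit and 46 for the large subunit and its stalk, and 6 are l paralogs, genes named after a core gene with an added l. The rule uses names and no measured value, although the family was picked for description with earlier results of these data known.

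The open chromatin of these genes was measured by DNase-seq, which finds stretches of DNA that the enzyme DNase I can cut, in whole spleen of male B6CASTF1/J mice aged 10 days. This strain is the hybrid offspring of C57BL/6J and CAST/EiJ parents. There were 2 libraries in 1 group, biological replicates 1 and 2, and no treated or mutant animals. The libraries came from separately numbered spleens under a shared donor record, and the labels do not say how many animals each held.

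Ribosomal protein genes are transcribed in every growing cell, and their products must be made in matched amounts because most of them are present in equal copy number in the ribosome. Mammalian ribosomal protein promoters are known as short, CpG-rich promoters that mostly lack a TATA box at the usual place. Their messages begin with a cytidine and a run of pyrimidines, the terminal oligopyrimidine (TOP) tract, through which mTOR signalling controls their translation. Reduced dosage of many of these proteins in humans causes Diamond-Blackfan anemia, a failure of red cell production, and the spleen of a young mouse is a site of red cell production.

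Among 9 sequences searched in these promoters was box A, the palindrome CTCGCGAG, for which 9 of 10 matches overlapped a footprint in both libraries by at least 1 bp. A footprint is a short stretch inside open chromatin that is protected from cutting, as listed by the authors for each library. The following 6 promoters hold box A with no more than 30 bases of the printed stretch beyond the start. Each line gives the match in capitals with 16 bases either side, 5′ to 3′ on the strand of the gene, in mm10 coordinates, from the RefSeq GRCm38.p6 genome.
Rpl12, chr2:32961643-32961682, plus strand: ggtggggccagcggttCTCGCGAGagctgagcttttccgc
Rpl26, chr11:68901525-68901564, plus strand: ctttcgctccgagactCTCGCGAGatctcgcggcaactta
Rpl10a, chr17:28328519-28328558, plus strand: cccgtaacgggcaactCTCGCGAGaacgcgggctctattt
Rps6, chr4:86857394-86857433, minus strand: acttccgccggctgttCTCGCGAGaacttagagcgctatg
Rps28, chr17:33824539-33824578, minus strand: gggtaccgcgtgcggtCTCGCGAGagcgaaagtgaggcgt
Rpl4, chr9:64173117-64173156, plus strand: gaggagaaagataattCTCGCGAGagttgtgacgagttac
In 6 of these 6 stretches the match was also preceded by t and followed by a. Other core genes with a match included Rpl27a and Rpl17.

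A further 5 promoter stretches of 100 bases show how the sequences named below lie in strong or typical members. They come from the same build, 5′ to 3′ on the strand of the gene, with the match in capitals. Rpl7a had the strongest promoter peak of the family, and its capitals mark the reverse complement of the Sp1 sequence GGGCGG. Rpl27a shows the reverse complement of the ETS sequence CCGGAAG, Rpl23 the E box CACGTG, Rpl10a the reverse complement of the NRF1 sequence GCATGCGC, and Rpl3 the reverse complement of the TATA sequence TATAAA.
Rpl7a, chr2:26910682-26910781, plus strand: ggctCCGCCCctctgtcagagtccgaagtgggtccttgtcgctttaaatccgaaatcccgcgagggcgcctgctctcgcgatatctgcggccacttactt
Rpl27a, chr7:109519022-109519121, plus strand: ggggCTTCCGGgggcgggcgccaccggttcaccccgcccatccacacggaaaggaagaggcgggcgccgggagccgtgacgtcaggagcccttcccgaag
Rpl23, chr11:97782408-97782507, minus strand: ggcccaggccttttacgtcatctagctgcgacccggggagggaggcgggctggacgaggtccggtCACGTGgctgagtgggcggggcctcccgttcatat
Rpl10a, chr17:28328498-28328597, plus strand: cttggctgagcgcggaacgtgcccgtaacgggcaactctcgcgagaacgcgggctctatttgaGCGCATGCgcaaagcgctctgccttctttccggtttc
Rpl3, chr15:80083377-80083476, minus strand: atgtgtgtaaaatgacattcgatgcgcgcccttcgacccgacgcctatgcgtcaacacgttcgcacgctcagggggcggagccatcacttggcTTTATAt

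A promoter peak was the strongest peak of the longer of the authors' peak lists within 500 bp of any annotated transcription start site (TSS) of the gene. Its signal, the value the authors deposited with it, is a density of cuts scaled to depth. The scaling constant is not given, so signals compare within a library, and absolute depth is unknown. Replicate 1 had 130476 peaks and replicate 2 had 95847, and the median promoter signal of protein-coding genes was 6.93 in replicate 1 and 3.51 in replicate 2. To set the libraries side by side, relative signal is the log2 of a promoter's signal over that median, so 0 is the median promoter with a peak. Spleen markers fitted the tissue label in part: the red cell genes Slc4a1, Klf1 and Epb42 and the B cell genes Cd79a, Cd22 and Pax5 had promoter peaks in both libraries. Of the T cell genes Lck did and Cd3e and Cd4 did not, and the liver genes Alb, Apoa1 and Ttr had none in either library. Since 60.7% of all protein-coding genes had a peak in both libraries, presence of a peak says little by itself. Mean relative signals were 0.38 for Slc4a1, -0.57 for Epb42 and -1.04 for Klf1. They were -0.43 for Cd22, -1.17 for Cd79a, -1.25 for Pax5 and 0.90 for Lck.

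All 77 core genes had a promoter peak in replicate 1 and in replicate 2, whereas 3 of the 6 l paralogs had one in both. Over all protein-coding genes the share was 60.7% for a peak in both libraries, 67.7% in replicate 1 and 61.3% in replicate 2. The complete set was not particular to the cytoplasmic ribosome in these data: 78 of 78 mitochondrial ribosomal protein genes and 20 of 20 ribosome biogenesis genes had a peak in both libraries as well. With 1 group of 2 libraries there is no contrast to test, so each comparison below gives both libraries' values, and genes are not replicates.

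Core promoters carried a stronger signal than the 13243 other protein-coding promoters with a peak in both libraries. Their median signal was 15.9 against 8.48 in replicate 1, and 6.38 against 3.53 in replicate 2, ratios of 1.87 and 1.80. On the relative scale the core median exceeded that of the other genes by 0.90 in replicate 1 and by 0.85 in replicate 2, a mean of 0.88 ± 0.037 (SD, n = 2 libraries). The difference was larger than the spread between libraries. In whole tissue a higher signal from more cells cannot be told apart from a higher signal per cell. The middle core promoter stood at percentile 75.6 of all protein-coding promoters with a peak in replicate 1 and at 74.0 in replicate 2, against 54.9 and 50.3 for the middle other promoter.

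The core genes differed among themselves less than the other protein-coding genes as a whole did. The mean relative signal of the 2 libraries lay above 0 for 72 of 77 core genes (93.5%) and 53.2% of the other genes. Its interquartile range ran from 0.65 to 1.54 in core genes and from -1.48 to 1.08 in the other genes. As ratios of signal, the upper quartile was 1.87 times the lower in core genes in either library, against 6.34 times in replicate 1 and 5.53 times in replicate 2 in the other genes. By full range, from lowest to highest gene, a confined span was not particular to the core, which ran from -0.73 to 2.54. The other protein-coding genes ran from -6.37 to 3.27. Mitochondrial ribosomal protein genes (n = 78) ran from -1.59 to 2.09, ribosome biogenesis genes (n = 20) from -0.92 to 1.80 and translation genes with TOP messages (n = 14) from -0.17 to 2.27. A full range tends to widen with the number of genes, and interquartile ranges of these lists are not given here. The family sat above the middle, and most of it lay outside the top 10%. In the top 10% of both libraries were 13 of 77 core promoters (16.9%), a higher share than the 7.64% of the other promoters.

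**Figure D1:**
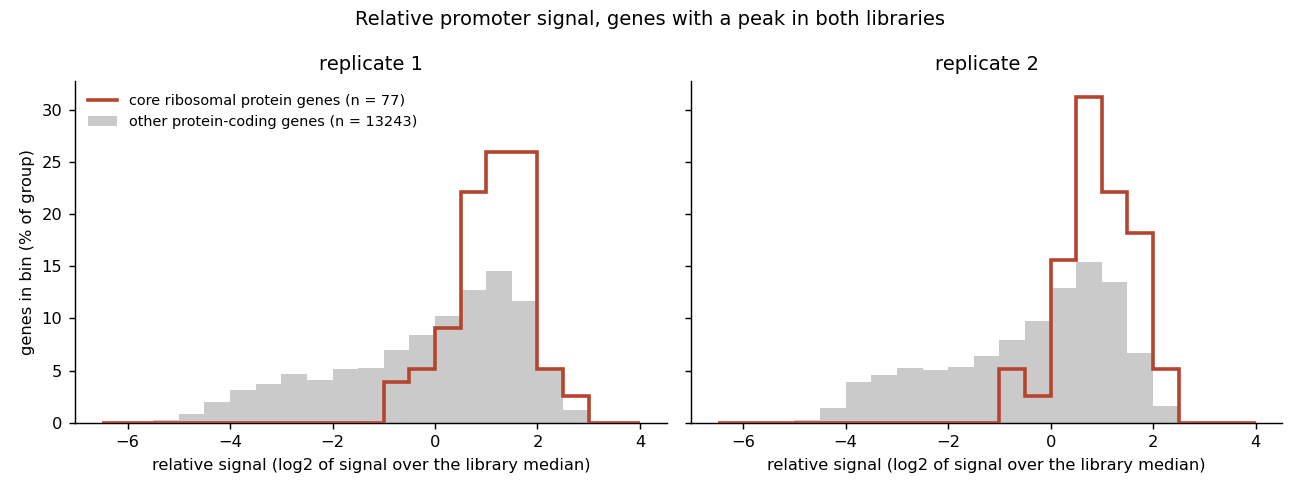
The share of genes (vertical axis, percent of each group) is plotted against relative signal in bins of 0.5 log2 units (horizontal axis) for 77 core ribosomal protein genes (red line) and 13243 other protein-coding genes with a peak in both libraries (grey), with a panel for each library. The core genes lie between -1 and 3 in both panels, while the other genes trail far below 0.

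Other promoters of like CpG content stood between the core and the rest. The CpG ratio (observed over expected CpG, 250 bp either side of the TSS) had a median of 0.893 in core promoters and 0.794 in other promoters. The 4477 other genes whose ratio lay within the core interquartile range had a median relative signal of 0.64, against 1.05 in core genes. The core median was higher than theirs by 0.39 in replicate 1 and by 0.38 in replicate 2. Among core genes, relative signal and CpG ratio had a Spearman rho of 0.287 over 77 promoters that share the same libraries, given as a description. The part of CpG content in the difference was not tested.

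The strongest promoter of the family was that of Rpl7a, a large-subunit protein gene, whose signal was 46.8 in replicate 1 and 17.5 in replicate 2. It stood at percentile 99.7 of promoters in replicate 1 and at 99.6 in replicate 2. A start of Med22, a Mediator subunit gene, lies within 500 bp of its peaks. Rpl23, a large-subunit protein that can bind MDM2, had 39.9 in replicate 1 and 12.7 in replicate 2, and Rpl3, which lies near the peptidyl transferase centre, had 32.7 and 15.04 in the same order. These promoters ranked high in both libraries. The others of the top 10 were Rplp0, the base of the ribosomal stalk, with Rpl27a, Rpl14, Rps12, Rpl26, Rpl9 and Rps3a1. Their signals ran between 24.4 and 33.2 in replicate 1 and between 12.1 and 14.9 in replicate 2, and their mean relative signals between 1.91 and 2.08.

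Rpl23a, Rps4x and Rpl6 were among the weakest core genes. Rpl23a, a large-subunit protein at the exit of the peptide tunnel, reached 3.68 in replicate 1 and 2.40 in replicate 2, a mean relative signal of -0.73. Rps4x had 4.39 and 2.04, and Rpl6 had 3.86 and 2.38, replicate 1 before replicate 2 in each pair. Their mean relative signals were -0.72 for Rps4x and -0.70 for Rpl6, while Rps27 was at -0.01, close to the median of all promoters. The highest core signal was 12.7 times the lowest in replicate 1 and 8.60 times in replicate 2. So these low members had ordinary open promoters, at percentiles between 35.8 and 40.5 in either library. Rpl6 is among the core genes with a near-identical copy of part of their peak elsewhere in the genome, over 21.2% of peak bases.

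**Figure D2:**
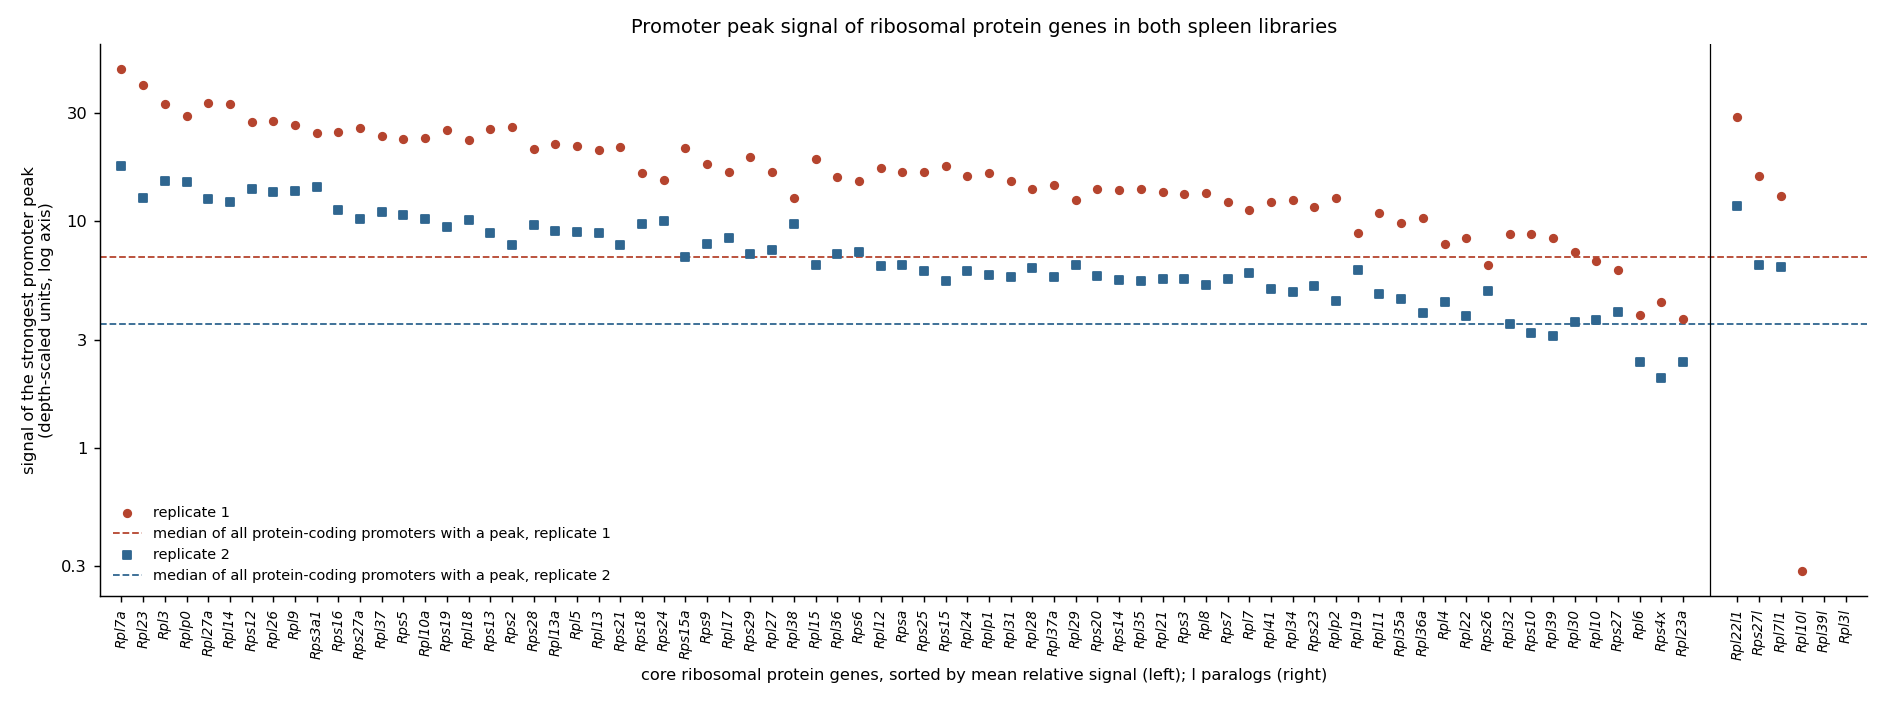
Signal of the strongest promoter peak (vertical axis, depth-scaled units, log axis) is shown for 73 of 77 core genes, sorted by mean relative signal, and for the 6 l paralogs at the right (circles, replicate 1; squares, replicate 2; dashed lines, each library's median promoter). The order is similar in both libraries, Rpl7a is highest, and Rpl6, Rps4x and Rpl23a lie below the line of each library; Rpl10l has a point for replicate 1 alone and Rpl39l and Rpl3l have none.

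Genes of the small subunit had a median relative signal of 1.27 (n = 31), against 0.91 for those of the large subunit (n = 46). Small-subunit genes were higher by 0.28 in replicate 1 and by 0.27 in replicate 2. The ranges overlapped almost wholly, from -0.72 to 1.98 for the small subunit and from -0.73 to 2.54 for the large subunit. The stalk genes spread widely: Rplp0 had a mean relative signal of 2.08, while Rplp1 had 0.97 and Rplp2 had 0.60, although their products stand together on the ribosome.

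All 19 genes mutated in Diamond-Blackfan anemia that were listed had a promoter peak in both libraries, as did the rest of the core. Their median relative signal was 1.17, against 1.00 for the 58 remaining core genes. Rpl26, at 1.96, was the strongest of them, and Rps27, at -0.01, the weakest. For Rps19, the gene most often mutated in this anemia, the signal was 25.1 in replicate 1 and 9.37 in replicate 2. These values are of different peaks, 321 bp apart, and neither covered the TSS used. At the peak strongest in the other library, replicate 1 had 17.1 and replicate 2 had 8.53. Rpl5 and Rpl11, whose proteins together with 5S RNA can inhibit MDM2, had mean relative signals of 1.49 and 0.54. Between the strongest and the weakest lay others that included, from high to low, Rps19, Rpl18, Rps28, Rpl5, Rps24, Rps15a, Rps29, Rpl27, Rpl15, Rpl31, Rpl35, Rps7, Rpl11, Rpl35a, Rps26 and Rps10. The members of this disease list were thus spread through the upper and the lower part of the family.

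The 4 X-linked core genes were among the weaker members. Rpl36a reached 10.3 in replicate 1 and 3.92 in replicate 2, Rpl39 had 8.45 and 3.12, Rpl10 had 6.66 and 3.66, and Rps4x had 4.39 and 2.04. Rpl10 joins the large subunit late in its maturation, and Rps4x is the X-linked small-subunit gene that in humans has a Y-linked counterpart. The X-linked genes had a median signal 0.462 times that of the 73 autosomal core genes in replicate 1 and 0.529 times in replicate 2. Among the other genes the X-linked promoters (n = 404) had 0.384 times the autosomal median in replicate 1 and 0.410 times in replicate 2. Males carry a single X chromosome, and whether copy number accounts for these ratios was not tested.

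Of the 6 l paralogs, 3 had a promoter peak in both libraries and 3 did not. Rpl22l1 reached 28.8 in replicate 1 and 11.6 in replicate 2, against 8.45 and 3.81 for Rpl22, the core gene after which it is named. The paralog was thus 3.41 times as strong as its core gene in replicate 1 and 3.05 times in replicate 2, and it would have ranked just behind the 10 strongest core genes. Rps27l, a p53 target, had 15.8 in replicate 1 and 6.41 in replicate 2, against 6.07 and 3.95 for Rps27, ratios of 2.61 and 1.62. Rpl7l1 had 12.9 in replicate 1 and 6.28 in replicate 2, against 11.1 and 5.88 for Rpl7, ratios of 1.16 and 1.07. By their strongest peak Rpl22l1 and Rps27l thus exceeded their core genes clearly in both libraries, while Rpl7l1 was close to Rpl7. For Rpl7l1 the strongest peak was not the same in the libraries: in replicate 1 it lay upstream, 341 bp from the peak that was strongest in replicate 2. At the downstream peak replicate 1 had 11.2, just above Rpl7, and at the upstream peak replicate 2 had 5.31, below the 5.88 of Rpl7.

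The paralogs without a peak in both libraries were those known from muscle and testis. A peak missing from the authors' longer list can also reflect depth. Rpl3l, used in striated muscle, and Rpl39l, used in male germ cells, had no promoter peak in either library, while Rpl3 and Rpl39 did. Rpl10l, which replaces Rpl10 during male meiosis, had a weak peak (0.285) in replicate 1 and none in replicate 2. The core gene Rpl10 had 23.4 times that signal in replicate 1. The peak of Rpl10l stood at percentile 4.22 of promoters with a peak, and 90.6% of its bases have a near-identical copy elsewhere. Rpl3l starts 7757 bp from the TSS of Rps2, whose promoter signal was 26.0 in replicate 1 and 7.83 in replicate 2, so a core gene with a strong peak and a paralog without a listed one lay near each other.

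The open stretch at a core promoter was as wide as at other promoters of like signal, the 3416 other genes with a mean relative signal inside the core interquartile range. Here and below, all 77 core genes, from -0.73 to 2.54, were set against this group, so the core reaches beyond its range of signal. Median peak width was 200 bp in core promoters, in those of like signal and in all other promoters in both libraries. The interquartile range of width ran from 180 to 220 bp in replicate 1 and from 180 to 240 bp in replicate 2, both in core promoters and in those of like signal. Core widths ran from 140 to 340 bp in replicate 1 and from 140 to 420 bp in replicate 2. The widest core peaks by the mean of both libraries included those of Rpl27, at 340 bp in each library, Rpl13a, at 280 bp in replicate 1 and 400 bp in replicate 2, Rps21 and Rps23. Rps23, whose product helps to keep decoding accurate, had 180 bp in replicate 1 and 420 bp in replicate 2. Width had little to do with strength, with a Spearman rho of -0.149 between relative signal and mean width over the 77 core genes.

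With each gene's start taken as the annotated TSS nearest its peaks, core peaks covered the start more often than other peaks did. The peaks thus picked the start, and a gene with more annotated starts has more to pick from. The number of starts was not compared, and no share with a fixed start is given here. The TSS nearest the peaks' midpoint lay inside the peak in 69 of 77 core genes (89.6%) in replicate 1 and in 68 (88.3%) in replicate 2. The shares among other genes were 73.4% and 73.9%, and among the 3416 other genes of like signal they were 79.2% and 81.4%. With positions counted from the TSS and negative upstream, the median edges of a core peak were -119 and 70 bp in replicate 1 and -130 and 76 bp in replicate 2. The median edges in other genes of like signal were -140 and 54 bp in replicate 1, and -149 and 59 bp in replicate 2. Core peaks thus lay slightly further downstream. Annotated starts can be imprecise, and the part of annotation quality in this shift was not tested.

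**Figure D3:**
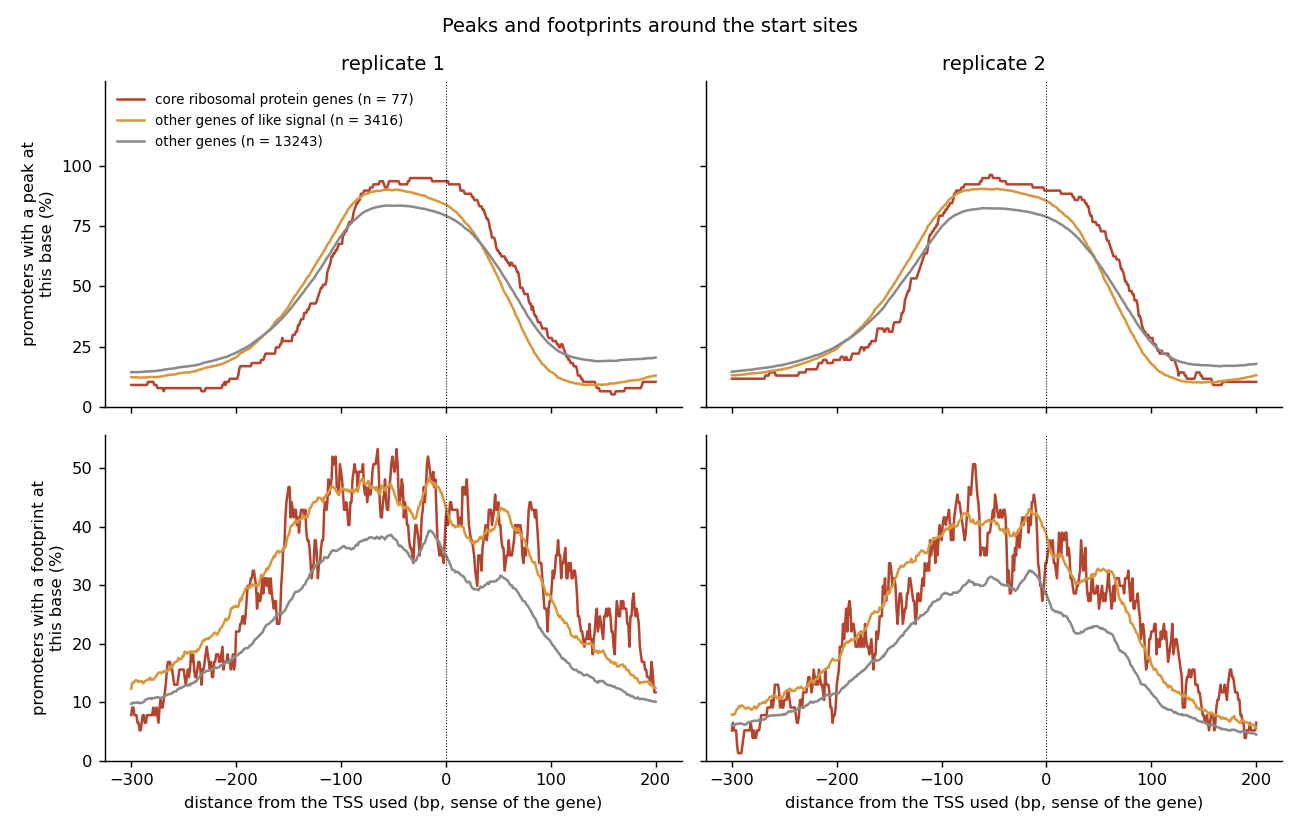
The percent of promoters with a peak (upper panels) or a footprint (lower panels) at each base is plotted against distance from the TSS in bp for 77 core genes (red), 3416 other genes of like signal (orange) and 13243 other genes (grey), by library. The TSS is the annotated one nearest the peaks' midpoint. Core promoters show a plateau of peaks over the TSS, and their footprint curve lies near that of genes of like signal and above that of all other genes.

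Footprint density in core promoters was higher than in all other promoters and slightly lower than in the group of like signal, which spans a narrower range of signal than the core. A core promoter peak held a median of 4 footprints in replicate 1 and 5 in replicate 2, against 4 in both libraries for the other genes. Per kb of peak there were 22.7 footprints in replicate 1 and 23.2 in replicate 2, against 21.3 and 19.8 for all other genes and 23.6 and 23.7 for other genes of like signal. Footprints covered 43.6% of core peak bases in replicate 1 and 38.3% in replicate 2, against 37.3% and 30.6% in all other genes and 46.0% and 40.9% in genes of like signal.

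Most core footprints were seen in both libraries. Of 349 core footprints in replicate 1, 270 (77.4%) overlapped a footprint of replicate 2, and of 391 in replicate 2, 288 (73.7%) overlapped one of replicate 1. The shares among all other genes were 66.6% and 74.0%, and among genes of like signal 81.7% and 80.0%. At least 1 shared footprint was found in 75 of 77 core promoters (97.4%), against 89.3% of the others and 97.4% of genes of like signal. The base most often under a footprint was at -65 bp in replicate 1, in 53.2% of core promoters, and at -70 bp in replicate 2, in 50.6%. The highest counts were in Rpl4, with 5 footprints in replicate 1 and 12 in replicate 2, and in Rps23, with 4 and 13, both of which had a far wider peak in replicate 2. The peak of Rpl4 ran from -534 to -375 bp in replicate 1 and from -534 to -175 bp in replicate 2. It left out the Rpl4 start, and a start of Zwilch lay within 500 bp of the peak. Rpl13a had 7 and 9, Rpl21 had 8 and 7, and Rpl19 had 7 in each.

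The libraries ranked core promoters alike. Spearman's rho of the signal between replicates 1 and 2 was 0.915 over 77 core genes and 0.973 over 13243 other genes, which cover a far wider range of signal. As a log2 ratio, the signal in replicate 1 over that in replicate 2 was 1.21 ± 0.29 in the median core gene (SD over 77 core genes), against 1.28 ± 0.41 over the other genes. The lowest ratios were those of Rps26 (0.38), Rpl38 (0.39) and Rpl19 (0.55), and the highest those of Rps2 (1.73), Rps15 (1.67) and Rpl23 (1.65). Rpl38, whose loss in mice alters the translation of Hox messages, had 12.6 in replicate 1 and 9.68 in replicate 2, percentiles 67.4 and 90.9. The strongest peaks of the libraries did not overlap in 2 core genes, Rps26, 201 bp apart, and Rps19, 321 bp apart. The ratio of Rps26 is therefore one between neighbouring peaks.

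The sequence of the core promoters differed from that of other open promoters in a few motifs. Each sequence was searched on both strands from 250 bp upstream to 50 bp downstream of the TSS, with exact (Clopper-Pearson) 95% intervals that cover counting error only. Box A was present in 10 of 77 core promoters, 13.0% (6.41 to 22.6%), against 1.99% of other promoters with a peak, 3.25% of those of like signal and 1.36% of all protein-coding promoters. The ETS sequence CCGGAAG was present in 30 core promoters, 39.0% (28.0 to 50.8%), against 17.98%, 25.1% and 11.97% of the same groups. For both sequences the core interval lay above the share in promoters of like signal. With the most upstream TSS of each gene, box A remained above, at 9.09% (3.73 to 17.8%) against 2.72%, while ETS did not, at 27.3% (17.7 to 38.6%) against 23.0%. With the TSS of the APPRIS principal transcript the ETS interval, 18.8 to 40.0%, also held the share in promoters of like signal, 23.6%. At least 1 of them was found in 36 core promoters, and 4 held both, among them Rpl26, where a box A match and an ETS match lie within the same peak.

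Of 10 box A matches in core promoters, 9 overlapped a footprint in both libraries by at least 1 bp, a share with an interval from 55.5 to 99.7%. The share was 70.1% of 281 matches in the other promoters and 80.5% in those of like signal, so the high rate was not distinguishable from theirs at this number of matches. In Rpl26 the footprint over the match ran from -51 to -28 bp in replicate 1 and from -52 to -28 bp in replicate 2, 24 and 25 bp wide. In Rpl10a it was 23 bp wide in replicate 1 and 24 bp in replicate 2, and in Rps6 it was 23 and 21 bp wide. In these 3 genes the edges lay within 2 bp of each other in the libraries. In others they lay further apart: the footprint over the match of Rpl12 was 25 bp wide in replicate 1 and 18 bp in replicate 2, and that of Rpl4 was 15 and 9 bp wide. In Rps28 the match touched 2 footprints in replicate 1 and 1 in replicate 2. The unprotected match was that of Rpl27a, whose centre lies 29.5 bp downstream of the TSS. When a match had to lie wholly inside the footprints, 60.0% of the 10 core matches of box A counted. The share was 75% of 8 matches for NRF1 and 66.7% of 6 matches for the cyclic AMP response element, too few to rank these sequences. In other promoters, by 1 bp of overlap, box A stood lower, at 70.1%, than NRF1, at 86.2%, and the cyclic AMP response element, at 89.5%. Core genes with box A had relative signals from 0.26 to 2.05, with a median of 1.53, against 0.97 for those without. The lowest was that of Rpl4, whose strongest peak in replicate 1 did not reach the match.

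Of 37 ETS matches in core promoters, 35.1% (20.2 to 52.5%) lay under a footprint in both libraries, against 44.6% in other promoters and 47.4% in those of like signal. The sequence was thus more frequent in core promoters, while the interval of its share under footprints held that of the other promoters. Core genes with the sequence had a median relative signal of 0.94, against 1.17 for those without. Of the matches, 26 read CCGGAAG on the sense strand and 11 on the opposite strand.

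The GC-rich Sp1 sequence GGGCGG was less frequent in core promoters than in others: 53.2% (41.5 to 64.7%) against 66.8% of other promoters, 74.1% of those of like signal and 47.6% of all protein-coding promoters. With a window that began 100 bp upstream, its core interval of 34.1 to 57.2% held the 56.9% of other promoters and lay below the 63.2% of those of like signal. The CCAAT box, searched as ATTGG, was present in 29.9% of core promoters (19.97 to 41.4%), against 38.1%, 45.7% and 38.5%. Shares of core promoters with the YY1 sequence AAGATGGCG were 3.90%, with the NRF1 sequence GCATGCGC 6.49%, with the E box CACGTG 10.4% and with the cyclic AMP response element TGACGTCA 7.79%. The shares of other open promoters, 3.17%, 5.61%, 10.4% and 3.69% in that order, lay inside each core interval. The cyclic AMP response elements were in Rpl27a, Rpl26, Rpl18, Rpl13, Rps9 and Rps29, and 5 of the 6 lay under a footprint in both libraries. That share, 83.3%, was no higher than the 89.5% of matches in other promoters and the 93.8% in those of like signal. Different motifs overlapped each other in 2 places in core promoters, and 7 pairs of matches of the same motif overlapped, as in Rpl10a, where GCATGCGC reads on both strands.

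The TATA sequence TATAAA occurred in 8 core promoters, 10.4% (4.59 to 19.4%), against 5.97% of other open promoters, 5.30% of those of like signal and 11.7% of all promoters. The median position of 9 core matches was 19.5 bp, downstream of the annotated TSS, while in other promoters it was -139.5 bp. Both medians depend on the window and the TSS: with a window that began 100 bp upstream they were 19.5 bp in core and -27.5 bp in other promoters, and with the most upstream TSS 2.5 bp in core and -135 bp in other promoters. Of the core matches 55.6% (21.2 to 86.3%) lay under a footprint in both libraries, against 19.3% in the others and 31.6% in those of like signal, which lies inside the core interval. With the window from 100 bp upstream the shares were 62.5% in core promoters, 35.3% in the others and 62.0% in those of like signal. Of the 9 core matches, 4 read TATAAA on the sense strand and 5 on the opposite strand. The downstream matches included those of Rplp0, Rps2, Rps28 and Rpl36a on the sense strand and of Rpl3 and Rps20 on the opposite strand. A TATA box acts upstream of the start, so these positions also depend on where the annotation puts the start. Whether any of these matches acts as a TATA box was not tested.

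A pyrimidine run of 5 or more that opens with C, the form of a TOP start, lay on the sense strand within 5 bp of the TSS in 28 core genes, 36.4% (25.7 to 48.1%). The share was 19.0% in other genes with a peak, 18.9% in those of like signal and 18.6% in all genes. Within 50 bp, an alternative chosen after seeing the data, it was 96.1% in core genes and 77.5% in other genes with a peak. With the most upstream TSS and the distance of 5 bp, the core share was 26.0% (16.6 to 37.2%), and its interval held the 19.7% of both other groups.

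**Figure D4:**
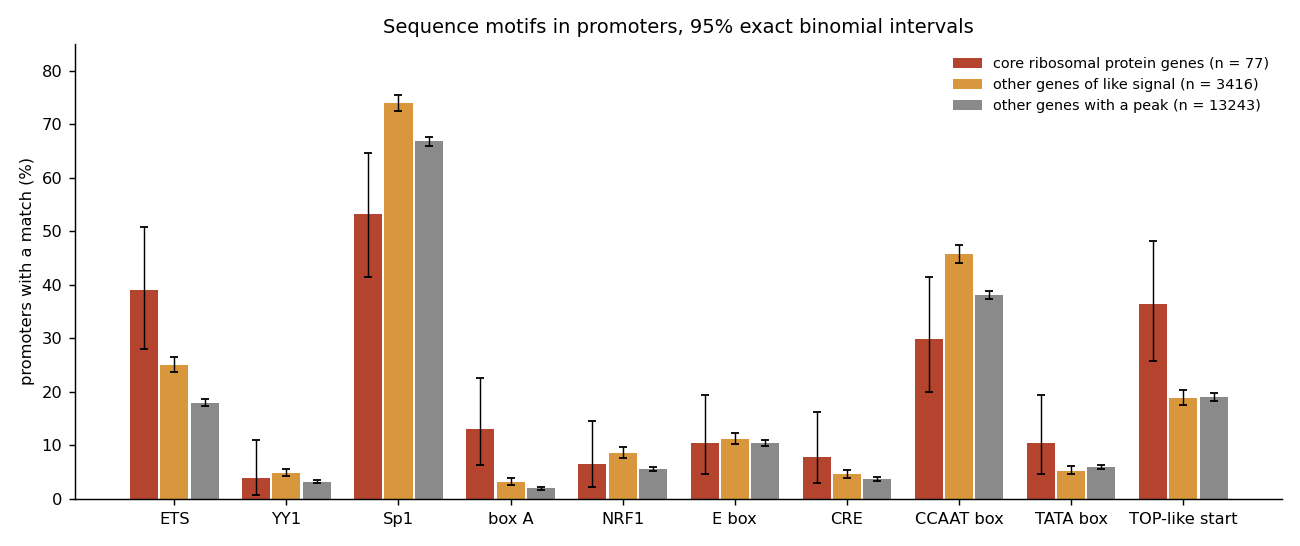
Bars give the percent of promoters with at least 1 match for each sequence in 77 core genes (red), 3416 other genes of like signal (orange) and 13243 other genes with a peak (grey), with error bars for exact 95% binomial intervals. With the TSS nearest the peaks and 250 bp upstream searched, ETS, box A and the TOP-like start have core intervals above the other groups, and Sp1 has an interval below them.

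Genes listed for sharing the TOP tract with the core family had a higher median signal, with members on both sides of the core median. The 14 listed translation genes with TOP messages had a median relative signal of 1.59, against 1.05 in core genes, with Eef2, the translocation factor, strongest at 2.27 and the ribosomal scaffold protein gene Rack1 weakest at -0.17. The signal of Eef2 was 38.2 in replicate 1 and 14.7 in replicate 2. Between them stood, from high to low, Pabpc1, Eif4b, Npm1, Eif3e, Tpt1, Eef1g, Eef1d, Nap1l1, Eef1b2, Eef1a1, Eif3f and Eif3h. Of the 14 genes 13 were above 0. Fau, which encodes a ribosomal protein made as a ubiquitin-like fusion, had 2.03. The peak of Fau, with 35.5 in replicate 1 and 11.5 in replicate 2, is also the promoter peak of the mitochondrial ribosomal protein gene Mrpl49.

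Mitochondrial ribosomal protein genes were lower and more spread than cytoplasmic ones, with a median relative signal of 0.75 over 78 genes, a range from -1.59 to 2.09 and 61 above 0. Mrpl17, at 2.09, and Mrpl49 were strongest. The 20 ribosome biogenesis genes, which make and process ribosomal RNA, had a median of 0.43 with 15 above 0. Nop56, a core protein of box C/D small nucleolar ribonucleoproteins, had 1.80 and Bysl had 1.57. Of the groups that contribute to the ribosome, the cytoplasmic proteins and the TOP genes thus had the higher medians in these libraries.

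**Figure D5:**
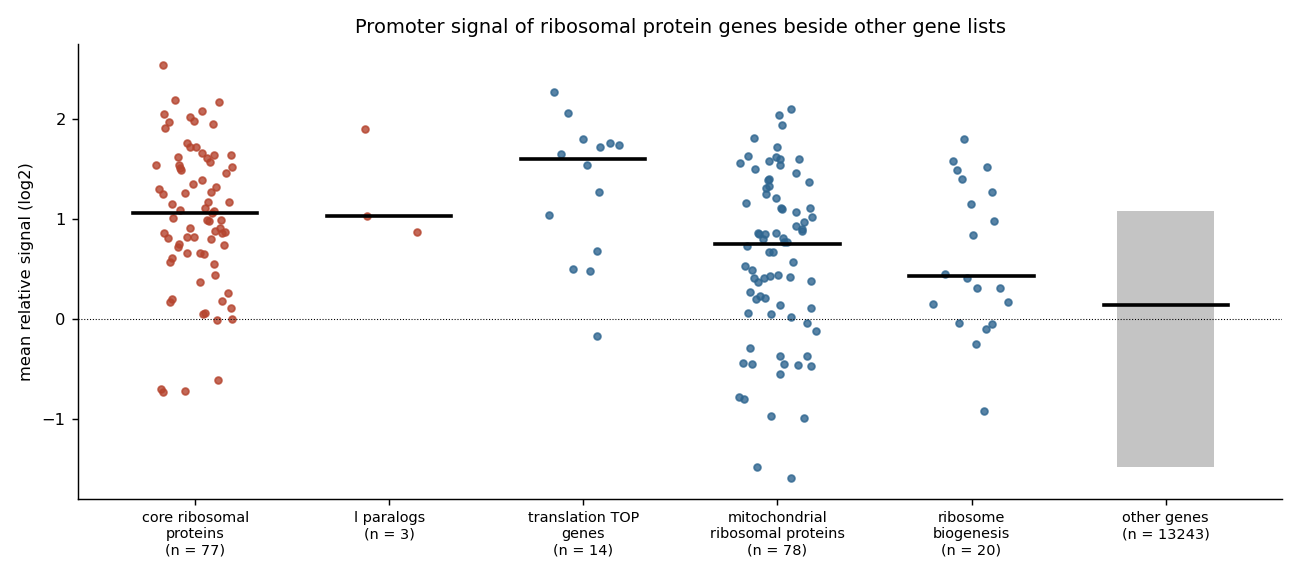
Mean relative signal (vertical axis, log2) is shown for each gene of the listed groups, with core ribosomal protein genes and l paralogs in red and other lists in blue, black lines for medians and a grey bar for the interquartile range of 13243 other genes. Core genes have a median of 1.05, TOP genes 1.59, mitochondrial ribosomal protein genes 0.75 and biogenesis genes 0.43.

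The core promoters were also split by a neighbouring start, a hosted RNA or a copy elsewhere, and the differences between the medians were not tested. For 20 core genes a TSS of another annotated gene lay within 500 bp of the strongest peaks of the libraries, protein-coding in 14 cases. Among the 14 was Rps10, where the other gene is RPS10-NUDT3, which carries its name. The 20 had a median relative signal of 1.25, against 0.97 for the 57 without. Annotated small nucleolar RNAs lie within the bounds of 30 core genes, on the same strand. The median of these genes was 1.17, against 0.98 for the 47 that host none. A near-identical copy of part of the peak, at least 95% identical over at least 50 bp, lay elsewhere in the genome for 16 core genes, with a median of 0.86 against 1.07 for the 61 without. The copies took between 16.2% and 34.5% of the peak bases. How the authors assigned reads in such copies is not stated, and their part in the signal was not tested.

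Almost all pseudogenes of the family had no listed peak. Of 289 annotated pseudogenes with a ribosomal protein symbol, 14 had a peak within 500 bp of their 5′ end in replicate 1, 11 in replicate 2 and 9 in both, or 3.11%. The share over all processed pseudogenes was 2.57%. The 9 had a median signal of 0.758 in replicate 1 and 0.494 in replicate 2, far below the core medians of 15.9 and 6.38. The strongest of the 9, Rpl29-ps2, lies beside the start of Akr1e1.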

How the data were processed

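Peak lists, footprints and false discovery rates came from 2 DNase-seq libraries of spleen. Each file was made by the authors from its own library's filtered alignment on mm10, per the deposited README; neither README nor labels name an aligner, peak caller or footprint caller. Peaks carry a deposited signal, a density of cuts that the authors scaled to depth by an unstated constant. The deposited p-value type columns were the false discovery rate per stretch of bases, all below 0.05, and a constant 0.01 for footprints, which was not used.

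Members and lists were chosen with earlier results of these data known. The strongest peak of the longer list within 500 bp of any TSS (GENCODE mouse M21, GRCm38) was taken per library with ties to the lower coordinate. Positions refer to the TSS nearest the peaks' midpoint. A footprint belonged to a peak, and a match to a footprint, by 1 bp of overlap. Near-identical copies were sought with blastn 2.17.0 (at least 95% identity over 50 bp). Shares have exact 95% intervals from scipy 1.17.1. The peak assignment was tested on simulated peaks. No test between groups was run. Named genes were the 10 strongest and 5 weakest core genes, the 5 widest and 5 most footprinted, X-linked genes, the 3 highest and 3 lowest library ratios, all l paralogs, anemia, stalk and TOP genes, and the 2 strongest of other lists. Genes named for a motif, a neighbour, a copy or a pseudogene were chosen after their values were seen. Alternatives were the shorter peak list, other windows, TSSs, footprint rules and leaving out promoters or a library. Some genes that these rules name are not reported here.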

Additional observations from a re-analysis of the deposited data

How the results depend on the processing

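A total of 120 alternative values stayed within the interval, the spread or 1.5 times of the reported value, which does not cover the comparison with other promoters: the core interval came to hold the share in promoters of like signal for ETS with the most upstream or the APPRIS TSS and for the TOP-like start with the most upstream TSS, and that in all other promoters for Sp1 with 100 bp upstream. Box A, first by share of core matches under a footprint, came behind NRF1 and the cyclic AMP response element when matches had to lie wholly inside. With 10, 8 and 6 matches in that order, neither setting ranks these sequences. Core genes with a peak in both libraries numbered 77 with the shorter peak list, 76 with a window of 100 bp and 72 with the most upstream TSS, and the median relative signal of core genes ran from 0.82 with the shorter list to 1.20 without replicate 2. Ribosomal protein pseudogenes with a peak in both libraries numbered 4 instead of 9 with the shorter list, 4 with a window of 100 bp and 17 with 1000 bp, and between 11 and 14 when either library was left out. Counting only footprints wholly inside a peak gave a median of 3.5 per core peak instead of 4.5, and 19.5 per kb instead of 23.0. The share of core promoters with ETS was 27.3% with the most upstream TSS, and a pyrimidine run was within 50 bp in 96.1%, an alternative chosen after seeing the data. Matches wholly inside footprints of both libraries were 18.9% for ETS, 0 for YY1 and 43.1% for Sp1, and footprints extended by 5 bp gave 100% for box A and for the cyclic AMP response element. With a library left out, ETS matches under a footprint were between 45.9% and 56.8%, and TATA matches between 55.6% and 88.9%. Asking for 1 library rather than both, a wider window or extended footprints can only keep or raise a count. A narrower window, or counting only what lies wholly inside, can only keep or lower it. The direction of those shifts was thus set by the rule, and the cause of the others was not tested. No paired analysis was possible because there is 1 group.

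Limits are the 2 libraries of 1 group, an unknown absolute depth, whole tissue with unmeasured cell shares, and annotated starts that can be off. The genome used is that of the C57BL/6J parent, and its effect on reads with CAST/EiJ alleles was not tested.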
